A study of Homo sapiens with 6 samples.

Results

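The 9 genes described here are transcriptional targets of p53, namely MDM2, GDF15, PLK2, BTG2, SESN1, TP53INP1, FAS, ZMAT3 and AEN. Each was found by its exact symbol among the 35268 named genes measured by mRNA sequencing in Rh30 cells, an established cell line of fusion-positive rhabdomyosarcoma, a muscle-lineage cancer of childhood that carries the PAX3-FOXO1 fusion. The study asked how gene expression responds to a small-molecule inhibitor of ETS family transcription factors. Its code name begins with YK and stands in full in the sample titles and on the axes of the plots. The compound is called the drug here. One group of 3 samples received 1 µM of the drug dissolved in DMSO and the other group of 3 received DMSO, the vehicle, alone, both for 24 hours. All 6 samples were Rh30 cells kept in RPMI medium with serum, so that DMSO was common to both groups. The state of p53 protein was not measured in these files, and the results hold for 1 cell line, 1 dose and 1 time.

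p53 is a transcription factor that is held at a low level by MDM2, an E3 ubiquitin ligase that marks it for degradation. When DNA damage or other stress frees p53 from MDM2, it binds a response element made of a pair of decamers and raises its target genes. MDM2 is itself a target, which closes a negative feedback loop. Other targets stop the cell cycle (CDKN1A, PLK2, BTG2), promote apoptosis (FAS, AEN, TP53INP1), limit growth signalling and oxidative damage (SESN1), act on RNA (ZMAT3) or are secreted (GDF15). Several of these genes have further activators. GDF15, ATF3 and SESN2 also respond to ATF4, the effector of the integrated stress response.

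Promoter sequences show where such elements stand in the members. RefSeq promoter windows on GRCh38.p14, taken as the 250 bases before each annotated start, were found for 8 of the 9 members and numbered 16, some of which overlapped. The p53 decamer consensus was searched by name without mismatch. A pair of decamers was counted with at most 3 mismatches over its 20 letters and at most 13 bases between them, with the invariant C and G kept. Because the consensus reads the same on both strands, one search covers both. A decamer stood in 4 windows of 4 members, against 5.57% of all 35116 windows. A pair stood in 7 windows of 6 members (MDM2, PLK2, SESN1, FAS, ZMAT3 and AEN), against 10.7% of all windows. GDF15 and BTG2 had neither within these windows, which says nothing of elements elsewhere. A match is a string of letters and was not tested for binding.

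The sequences below were chosen because they set PLK2, which changed with the drug, beside 3 members that did not pass the test, all with a pair of decamers. Each is printed 5′ to 3′ on the strand of its gene, without bases that lie in annotated exons, and capitals mark the pair with the fewest mismatches. Where pairs tied, the pair with the fewest bases between its decamers is marked. The PLK2 sequence lies at chr5:58460140-58460336 on the minus strand. Its window held 4 pairs, all with 3 mismatches, and the marked pair has 3 bases between the decamers. The MDM2 sequence lies at chr12:68808767-68809001 on the plus strand, before a start inside the gene, and its pair has 2 mismatches. The AEN sequence lies at chr15:88621090-88621336 on the plus strand, with 2 mismatches, and the SESN1 sequence at chr6:109008989-109009238 on the minus strand, with 3 mismatches.
PLK2: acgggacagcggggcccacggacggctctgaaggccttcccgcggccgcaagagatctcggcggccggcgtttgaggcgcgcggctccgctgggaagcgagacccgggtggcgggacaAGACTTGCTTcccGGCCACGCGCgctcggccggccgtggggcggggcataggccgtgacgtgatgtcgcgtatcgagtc
MDM2: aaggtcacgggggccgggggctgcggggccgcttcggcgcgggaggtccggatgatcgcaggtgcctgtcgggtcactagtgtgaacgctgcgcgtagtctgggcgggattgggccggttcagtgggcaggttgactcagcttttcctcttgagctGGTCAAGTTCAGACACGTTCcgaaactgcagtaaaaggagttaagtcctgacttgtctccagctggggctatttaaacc
AEN: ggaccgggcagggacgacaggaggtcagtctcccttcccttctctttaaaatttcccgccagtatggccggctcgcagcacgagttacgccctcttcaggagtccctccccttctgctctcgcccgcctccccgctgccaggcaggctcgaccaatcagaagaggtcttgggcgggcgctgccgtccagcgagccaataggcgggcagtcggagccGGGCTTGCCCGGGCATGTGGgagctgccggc
SESN1: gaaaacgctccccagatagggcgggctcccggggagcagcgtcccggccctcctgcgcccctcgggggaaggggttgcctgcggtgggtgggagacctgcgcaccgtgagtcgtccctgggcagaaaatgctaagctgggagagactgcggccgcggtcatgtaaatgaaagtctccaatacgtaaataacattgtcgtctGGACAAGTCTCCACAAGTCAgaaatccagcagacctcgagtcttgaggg

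The libraries held 16724650 to 24677433 reads on named genes. DMSO replicate 1 was the shallowest and stood apart, with a mean correlation of 0.989 with the other libraries over genes, against 0.992 or more for each of those, and 6.05% of its reads on mitochondrial genes, against 4.74% to 5.03% in the others. Myogenic markers were high, with group means of 36868 normalized counts or more for MYOD1 and 6574 or more for MYOG, DES, CDH15 and CHRNA1, while MYF5 was at 0 in all 3 DMSO libraries. PTPRC, a blood cell marker, reached at most 1.00 normalized counts in any library, PECAM1, an endothelial marker, 29.0 and EPCAM, an epithelial marker, 88.3. None of the 7 markers tested by limma passed an adjusted p of 0.05, and edgeR and DESeq2 also called 0. In limma 2 had an unadjusted p under 0.05, as did 18.7% of all genes tested. Limma called CDH15 without DMSO replicate 1 and MYOG without DMSO replicate 2, settings in which 13.1% and 4.92% of all genes were called. In bulk RNA, a change in the share of cells that express a gene and a change in RNA per cell cannot be told apart.

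In the members as a group, GDF15 and PLK2 were higher with the drug and the others that could be tested did not pass. GDF15 rose 1.48-fold and PLK2 1.29-fold, while MDM2, BTG2, SESN1, ZMAT3 and AEN lay within 0.09 of no change on the log2 scale. TP53INP1 was 1.29-fold of its DMSO level but did not pass the threshold. FAS was too low to test. Fold changes are on the scale of log2(normalized count + 1), and tests are limma over 13930 genes whose mean reached 10, adjusted by the Benjamini-Hochberg method, with a threshold of 0.05. Of the 8 members tested, 2 were called, both higher, where 3.41% of all genes tested were called (1.26% higher and 2.15% lower). The groups did not overlap in 3 members, all higher with the drug, a pattern seen in 10.9% of all genes tested. The median log2 fold change of the 8 members was 0.05, and that of all genes tested was -0.01. The calls of members depended on single libraries, since with drug-treated replicate 1, 2 or 3 left out 0 of 8 were called, although 3 had an unadjusted p under 0.05 each time (11.7%, 13.7% and 13.2% of all genes), and 0.137%, 0.18% and 0.331% of all genes were called. Without DMSO replicate 1 limma called 3 of 8, as did edgeR and DESeq2 on all 6 libraries and limma after trends on GC content and length were removed, where 13.1%, 3.34%, 5.4% and 11.5% of all genes were called. A replicate block left 2 members called (1.29% of all genes), and moderation without a mean trend left 0 (0.237% of all genes). Under that moderation 3 members had an unadjusted p under 0.05, as did 16.1% of all genes.

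**Figure D1:**
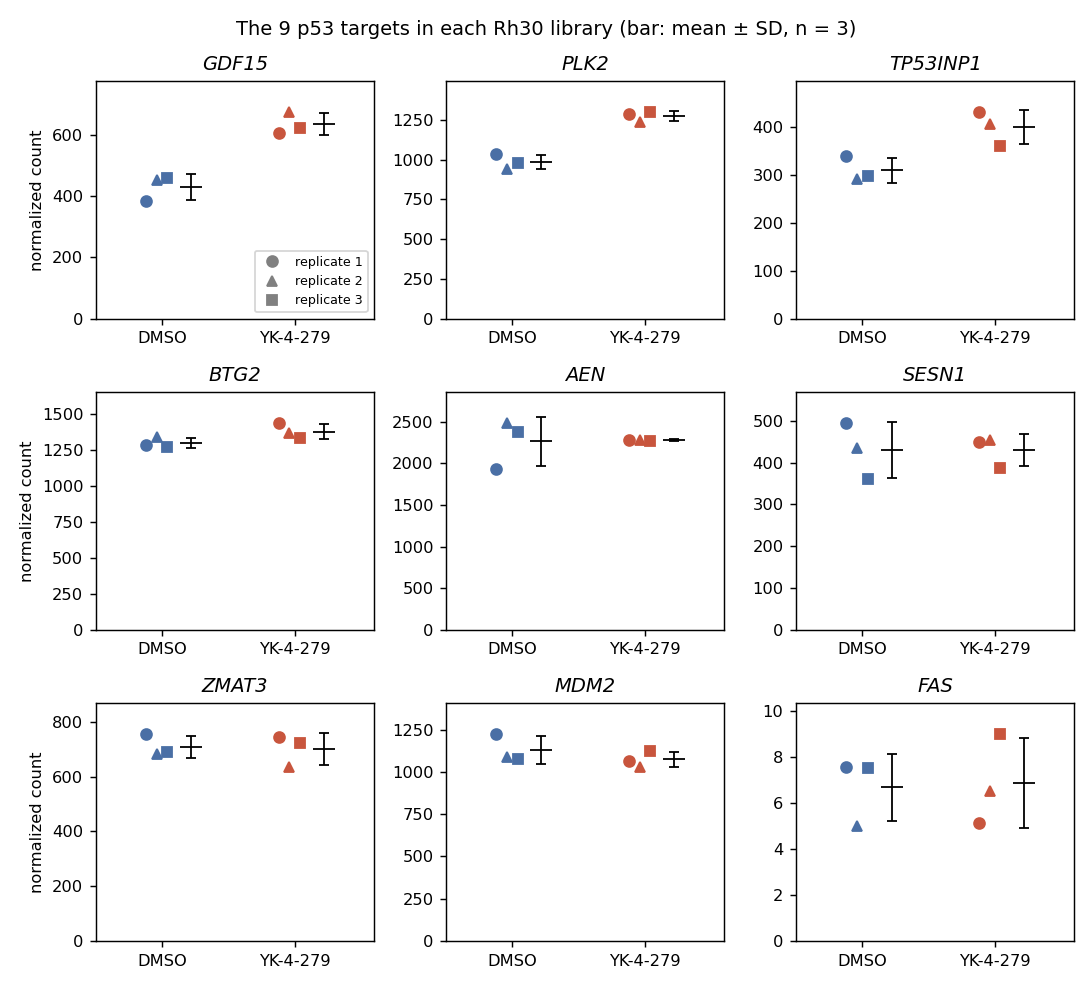
Normalized counts (y axis, from 0, with a scale of its own in each panel) of the 9 members in the 3 DMSO and the 3 drug-treated libraries, with the mean and SD of each group (n = 3) as a bar. GDF15, PLK2 and TP53INP1 are the members whose drug-treated libraries all lie above the DMSO libraries.

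MDM4, an MDM2 relative that blocks p53 without degrading it, held 1901, 1847 and 1948 normalized counts in DMSO replicates 1, 2 and 3 and 1872, 1778 and 2122 with the drug. Its log2 fold change was 0.02 (SE 0.07, limma adjusted p = 0.938).

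Among the members that act on p53 itself, MDM2 (chr12:68808177-68845544 on hg38) showed no change past the spread of the libraries. It held 1223, 1087 and 1076 normalized counts in DMSO and 1065, 1032 and 1125 with the drug, so that the groups overlapped and DMSO replicate 1 was the highest of all. The mean went from 1129 ± 81.8 to 1074 ± 46.8 (SD, n = 3 in each group), which gave a log2 fold change of -0.07 (SE 0.07, 95% confidence interval -0.23 to 0.09, limma adjusted p = 0.647). Without DMSO replicate 1 it was -0.01. The interval leaves room for a fall of 14.6% or a rise of 6.27%.

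TP53INP1 (chr8:94925972-94949378), which binds p53-modifying kinases and promotes cell death and autophagy, stood at 339, 291 and 298 normalized counts in DMSO and at 431, 405 and 361 with the drug. Every drug-treated library lay above every DMSO library. Its mean was 309.3 ± 26.1 and 399.2 ± 35.3 (SD, n = 3 each), with a log2 fold change of 0.37 (SE 0.10, 95% confidence interval 0.15 to 0.58, limma adjusted p = 0.0646). That is about the size of the difference in PLK2, with a wider interval at a lower read count. The gene passed the threshold in edgeR (adjusted p = 0.0453) and DESeq2 (adjusted p = 0.0268) on the recovered reads, and in limma without DMSO replicate 1 (adjusted p = 0.00041), whereas without drug-treated replicate 1 limma gave an adjusted p of 0.323.

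Of the members that slow the cell cycle, PLK2 rose and BTG2 stayed within its spread. PLK2 (chr5:58453982-58460139), a polo-like kinase that acts at centrosomes and in stress checkpoints, held 1033, 943 and 981 normalized counts in DMSO and 1285, 1239 and 1300 with the drug. The groups were well apart, and the libraries within each group were close to each other. The mean went from 985.7 ± 44.9 to 1275 ± 31.8 (SD, n = 3 in each group), which gave a log2 fold change of 0.37 (SE 0.07, 95% confidence interval 0.23 to 0.52, limma adjusted p = 0.0109). Its paralog PLK3 had a log2 fold change of 0.26 (95% confidence interval 0.03 to 0.48, limma adjusted p = 0.204). Its printed promoter holds a pair of decamers, as do those of MDM2, AEN and SESN1, which did not pass the test.

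BTG2 (chr1:203305491-203309602), an antiproliferative factor that recruits the deadenylase complex to mRNA, held 1281, 1335 and 1271 normalized counts in DMSO and 1434, 1365 and 1329 with the drug. The lowest drug-treated library fell just under the highest DMSO library. The log2 fold change was 0.09 (SE 0.06, 95% confidence interval -0.05 to 0.22, limma adjusted p = 0.502). ZMAT3 (chr3:178960121-179072215), a zinc finger protein that binds RNA and regulates splicing, held 755, 683 and 689 in DMSO and 745, 635 and 723 with the drug. Its log2 fold change was -0.02 (SE 0.08, 95% confidence interval -0.20 to 0.16, limma adjusted p = 0.936), and it was 0.03 without DMSO replicate 1.

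Of the apoptosis arm, AEN did not pass the test and FAS was too low to test, while TP53INP1 is described above. AEN (chr15:88621337-88632281), a nuclease that digests DNA during apoptosis, held 1928, 2481 and 2378 normalized counts in DMSO and 2280, 2284 and 2263 with the drug. The drug-treated libraries were nearly equal and fell within the range of the DMSO libraries, of which replicate 1 was the lowest. The log2 fold change was 0.02 (SE 0.08, 95% confidence interval -0.16 to 0.20, limma adjusted p = 0.941), and -0.09 without DMSO replicate 1 (adjusted p = 0.173). FAS (chr10:88953813-89029605), the cell surface death receptor, was barely detected. It had 6, 5 and 9 reads in the DMSO libraries and 6, 6 and 9 in the drug-treated libraries, or 6.69 ± 1.47 and 6.89 ± 1.96 normalized counts (SD, n = 3 each), and lay below the filter, so that it was not tested.

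Among the stress genes, GDF15 had the largest change of the 8 members tested. GDF15 (chr19:18374731-18389176), a secreted cytokine of the TGF-beta family that acts on appetite through the receptor GFRAL, held 382, 452 and 458 normalized counts in DMSO and 606, 674 and 622 with the drug. The lowest drug-treated library lay above the highest DMSO library. The mean rose from 430.4 ± 42.0 to 634.0 ± 35.4 (SD, n = 3 in each group), which gave a log2 fold change of 0.56 (SE 0.09, 95% confidence interval 0.36 to 0.76, limma adjusted p = 0.00741). Without DMSO replicate 1, its lowest library, the value was 0.48. That interval does not meet those of MDM2, BTG2, ZMAT3, AEN and SESN1, although the differences between members were not tested.

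SESN1 (chr6:108984309-109094846), a sestrin that restrains mTORC1 signalling and lowers oxidative damage, held 494, 434 and 362 normalized counts in DMSO and 448, 454 and 386 with the drug. It had the widest interval of the 8 members tested, with a log2 fold change of 0.01 (SE 0.11, 95% confidence interval -0.24 to 0.25, limma adjusted p = 0.984), or 0.11 without DMSO replicate 1 (adjusted p = 0.450). Its paralog SESN2, which is also induced by ATF4, held 338, 367 and 352 in DMSO and 434, 465 and 445 with the drug. SESN2 rose, with a log2 fold change of 0.35 (SE 0.08, 95% confidence interval 0.16 to 0.53, limma adjusted p = 0.0410), a call that was lost without DMSO replicate 3 (adjusted p = 0.107) and without each drug-treated library (adjusted p = 0.165 to 0.198), with quantile normalization (0.0546), with a replicate block (0.0993) and with moderation without a mean trend (0.103).

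Per kilobase of annotated exon, counted over all isoforms of a gene, the order of the DMSO levels was BTG2 (470 ± 12.5 normalized counts per kilobase, SD, n = 3), AEN (379 ± 49.2), PLK2 (212 ± 9.66), GDF15 (206 ± 20.1), MDM2 (136 ± 9.85), ZMAT3 (62.8 ± 3.54), SESN1 (59.1 ± 9.13), TP53INP1 (54.8 ± 4.62) and FAS (0.228 ± 0.0501). The ranges of neighbours overlapped for PLK2 and GDF15, ZMAT3 and SESN1, and SESN1 and TP53INP1, and did not for the other neighbours. A gene with long isoforms that these cells do not use gets too low a level on this scale. This could apply to FAS, with 29313 bases of annotated exon, but isoform use was not measured.

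Across the 6 libraries, the Pearson correlations of the 28 pairs of tested members, on the log2 scale, ran from -0.79 (MDM2 with AEN) to 0.90 (PLK2 with TP53INP1), and 16 were above 0. GDF15 and PLK2 had a correlation of 0.86. These values are descriptions over 6 points that share their scaling and the split into 2 groups. By pattern, the genes most like MDM2 among 10698 whose mean reached 100 were MCOLN3, CCNT2 and FBXO33, with correlations of 0.996, 0.994 and 0.991 over the same 6 libraries. Picking the highest of 10698 correlations over 6 points by itself favours high values, and no link between these genes was tested.

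Around the members, a list of 68 p53 targets was described by role. Of the 57 that could be tested, 6 were called, 5 higher and 1 lower (10.5%, against the 3.41% of all genes), and 17 had an unadjusted p under 0.05, as did 18.7% of all genes tested. The list had 35 genes above 0 and 22 below, with a median log2 fold change of 0.06, and outside the members 4 of 49 were called. Leaving out DMSO replicate 1 gave 13 calls, 8 higher and 5 lower, where 13.1% of all genes were called, and leaving out drug-treated replicate 1, 2 or 3 gave 1 call each time, E2F7, where 0.137%, 0.18% and 0.331% of all genes were called. The groups did not overlap in 17 genes higher and 3 lower with the drug, against 10.9% and 15.1% of all genes tested. Of the 5 feedback genes, 0 were called in limma, with 2 at an unadjusted p under 0.05, and edgeR and DESeq2 each called TP53INP1, while limma without DMSO replicate 1, and limma with GC and length trends removed, called TP53INP1 and CCNG1, where 13.1% and 11.5% of all genes were called. Their highest in mean, CCNG1, a cyclin that recruits a phosphatase to MDM2, went from 2467 ± 287 to 2070 ± 117 (log2 fold change -0.25, limma adjusted p = 0.110), the opposite sign to TP53INP1. Without DMSO replicate 1 its value was smaller, at -0.15, and passed the threshold (adjusted p = 0.0214), as it did at -0.17 with GC and length trends removed (adjusted p = 0.0231).

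Of the 5 tested genes of cell cycle arrest, 4 lay above 0, 4 had an unadjusted p under 0.05 in limma, and 2 were called. Over all genes tested these shares were 48.0%, 18.7% and 3.41%. PLK2 was higher, and E2F7, an atypical E2F that represses cell cycle genes, fell from 1783 ± 169 normalized counts in DMSO to 1164 ± 25.6 (SD, n = 3 in each group), with a log2 fold change of -0.61 (SE 0.07, limma adjusted p = 0.00137). CDKN1A, the cyclin-dependent kinase inhibitor p21, held 1412, 1657 and 1676 in DMSO and 1670, 1688 and 1682 with the drug. Its DMSO replicate 1 was low, the groups overlapped, and the log2 fold change was 0.09 (SE 0.07, limma adjusted p = 0.536), or 0.01 without that library. GADD45A, a stress sensor of growth arrest and repair and the group's highest in mean, was also lowest in that library, with 1470, 1904 and 1782 in DMSO and 1937, 1940 and 1937 with the drug. Its groups did not overlap, and the log2 fold change was 0.18 (limma adjusted p = 0.265), or 0.07 without DMSO replicate 1.

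Of the 10 tested genes of apoptosis and autophagy, 0 were called in limma, edgeR or DESeq2. In limma 2 had an unadjusted p under 0.05, as did 18.7% of all genes tested, and the median log2 fold change of the 10 was -0.06. Without DMSO replicate 1 limma called 2 of them, BAX and PIDD1, both lower, where 13.1% of all genes were called. Among the 2 tested death receptors 0 were called by these 3 tools, with 1 at an unadjusted p under 0.05 in limma. TNFRSF10B, the TRAIL receptor DR5, stood at 1691 ± 79.0 in DMSO and 1907 ± 54.0 with the drug (log2 fold change 0.17, limma adjusted p = 0.157), and was called with GC and length trends removed (adjusted p = 0.0336). The 5 DNA repair genes also had 0 calls by these tools, with 2 at an unadjusted p under 0.05 in limma, and POLH, the translesion polymerase eta, stood at 673.8 ± 25.4 and 559.2 ± 2.77 (log2 fold change -0.27, limma adjusted p = 0.0654). Both without DMSO replicate 1 and with GC and length trends removed, limma called 2 of the 5, XPC higher and POLH lower (adjusted p of POLH = 0.0014 and 0.0156), where 13.1% and 11.5% of all genes were called.

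Of the 10 stress and metabolism genes tested, GDF15 and SESN2 were called, both higher, where 1.26% of all genes tested were called higher. RPS27L, a ribosomal protein paralog whose reads may be shared with RPS27, had a log2 fold change of -0.10 (limma adjusted p = 0.533), or -0.04 without DMSO replicate 1. AK1, an adenylate kinase, held 32.8, 64.0 and 58.4 normalized counts in DMSO and 74.5, 92.4 and 89.0 with the drug. Its groups did not overlap and its log2 fold change of 0.76 did not pass the threshold (limma adjusted p = 0.0892), but it was called without DMSO replicate 2 and with GC and length trends removed. Of the 18 tested genes in the secreted, surface and other group, 2 were called, both higher, against that same 1.26% of all genes. SERTAD1, a CDK4-binding regulator of E2F activity, went from 184.2 ± 25.7 normalized counts to 287.3 ± 22.2 (log2 fold change 0.65, SE 0.12, limma adjusted p = 0.0125). ATF3, a stress-induced transcription factor, went from 991.0 ± 67.7 to 1338 ± 54.1 (log2 fold change 0.43, SE 0.07, limma adjusted p = 0.00741). LIF, a cytokine of the interleukin-6 family, held 94.6, 123 and 115 in DMSO and 164, 138 and 179 with the drug. Its groups did not overlap and its log2 fold change of 0.53 did not pass the threshold (limma adjusted p = 0.0654), but it was called by DESeq2, without DMSO replicate 1, without DMSO replicate 2 and with GC and length trends removed. EPHA2, a receptor tyrosine kinase with the highest mean of this group, had a log2 fold change of 0.11 (limma adjusted p = 0.437), or 0.04 without DMSO replicate 1.

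**Figure D2:**
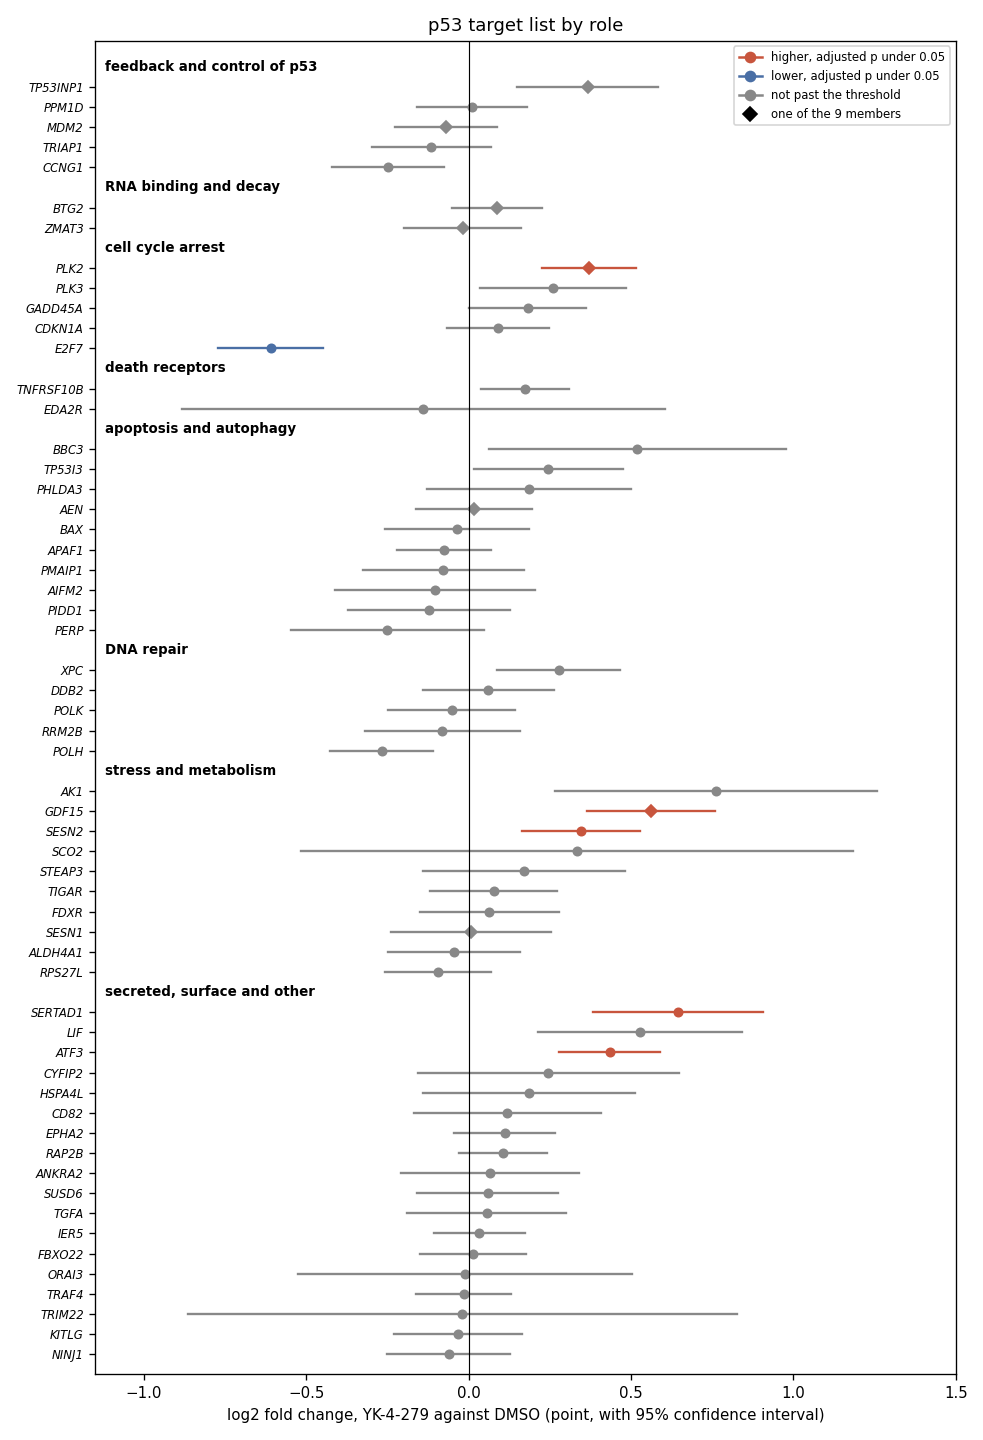
log2 fold change (x axis, drug against DMSO, limma on log2(normalized count + 1)) with its 95% confidence interval for the 57 tested p53 targets, grouped by role, with the members as diamonds. The 5 genes past the threshold on the higher side are SERTAD1, GDF15, ATF3, PLK2 and SESN2, and E2F7 is the only one on the lower side.

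Of 19 regulators of p53, 2 were called, both lower, where 2.15% of all genes tested were called lower. TP73, the p53 relative that binds the same elements, held 1081, 1253 and 1217 normalized counts in DMSO and 932, 837 and 889 with the drug (log2 fold change -0.42, SE 0.08, limma adjusted p = 0.0119). CHEK2, a kinase that phosphorylates p53 after DNA damage, held 687, 592 and 593 in DMSO and 429, 499 and 460 with the drug (log2 fold change -0.43, SE 0.09, limma adjusted p = 0.0226). In both genes the groups were apart. Of the 5 kinases upstream of p53, 0 lay above 0, and CHEK2 was the one called. Of the 19 regulators, 9 lay above 0 and 10 below, and of all genes tested 48.0% lay above 0. Without drug-treated replicate 1, 2 or 3, 0 of the 19 were called by limma, where 0.137%, 0.18% and 0.331% of all genes were called. In these settings 2, 3 and 4 of the 19 had an unadjusted p under 0.05, as did 11.7%, 13.7% and 13.2% of all genes. On all libraries edgeR and DESeq2 called TP73 and CHEK2. Moderation without a mean trend left 0 of the 19 called (limma adjusted p = 0.111 for TP73 and 0.125 for CHEK2), where 0.237% of all genes were called. A replicate block ended the call of CHEK2 (limma adjusted p = 0.0629). One more call was added without DMSO replicate 1 (EP300, higher), without DMSO replicate 2 (CHEK1, lower) and with GC and length trends removed (USP7, lower), where 13.1%, 4.92% and 11.5% of all genes were called.

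Since GDF15, ATF3 and SESN2 are also targets of ATF4, the integrated stress response was counted beside them. Of 13 genes tested, CEBPB and DDIT3 rose and PSAT1 fell, where 3.41% of all genes tested were called. In this list 11 genes lay above 0, against 48.0% of all genes tested, and the median log2 fold change was 0.15. CEBPB, a bZIP factor, went from 362.1 ± 33.4 to 498.6 ± 17.1 normalized counts (log2 fold change 0.46, SE 0.09, limma adjusted p = 0.0152). DDIT3, the factor CHOP, went from 421.2 ± 9.39 to 533.0 ± 20.6 (log2 fold change 0.34, SE 0.08, limma adjusted p = 0.0360). PSAT1, an enzyme of serine synthesis, fell from 3340 ± 194 to 2702 ± 108 (log2 fold change -0.30, SE 0.06, limma adjusted p = 0.0196). The 3 calls were lost when any of the drug-treated libraries was left out (adjusted p = 0.0820 to 0.223), and those of CEBPB and DDIT3 also without DMSO replicate 3 (adjusted p = 0.0608 and 0.103). Quantile normalization also ended the call of DDIT3 (adjusted p = 0.0517), a replicate block those of DDIT3 and PSAT1, and moderation without a mean trend all 3. The part of these genes in the changes of GDF15, ATF3 and SESN2 was not tested.

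In all 16 alternatives, 6 of them leaving out a library, the log2 fold change of GDF15 stayed between 0.47 and 0.61, that of PLK2 between 0.34 and 0.41 and that of TP53INP1 between 0.31 and 0.45. The values of AEN (-0.09 to 0.09), SESN1 (-0.11 to 0.11), ZMAT3 (-0.06 to 0.06) and MDM2 (-0.10 to 0.00) lay on both sides of 0 or reached it, and that of BTG2 ran from 0.06 to 0.13.

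**Figure D3:**
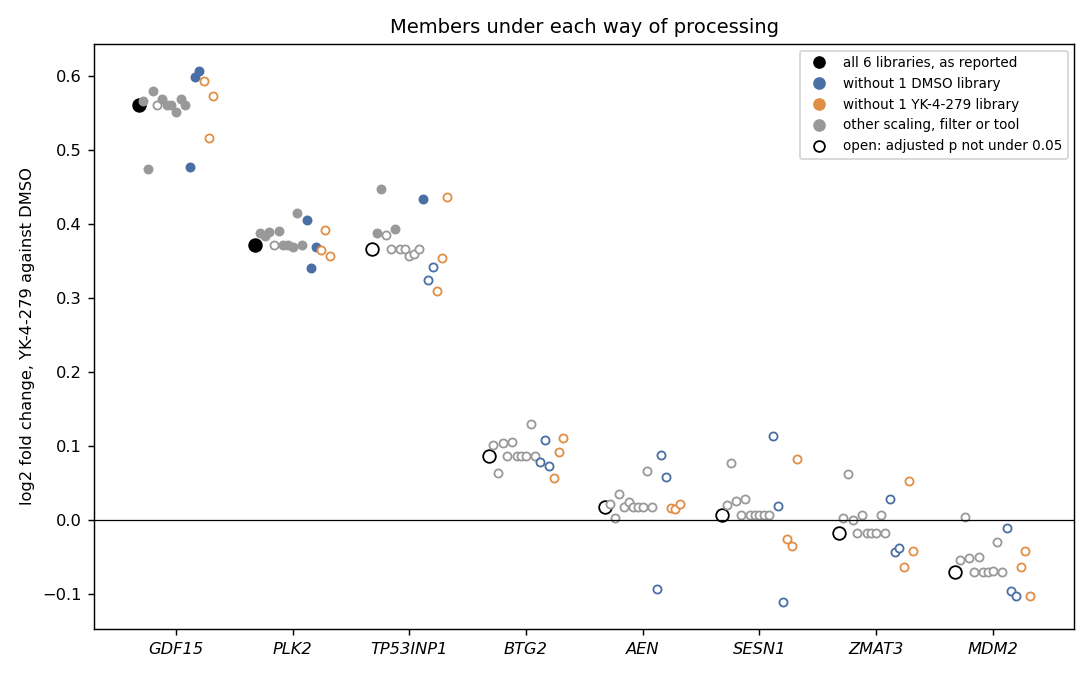
log2 fold change (y axis, drug against DMSO) of the 8 tested members under each way of processing, with filled points where the adjusted p was under 0.05. GDF15, PLK2 and TP53INP1 lie above 0.3 throughout, and the open orange points show that GDF15 and PLK2 lost the call whenever 1 drug-treated library was left out.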

How the data were processed

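Polyadenylated RNA of 6 Rh30 samples was sequenced. The authors trimmed reads with BBDuk, aligned them to hg38 with STAR 2.7.9a, counted them per gene and scaled them with DESeq2 1.44.0, with FastQC 0.11.8 and MultiQC 1.8 for quality control. The release of the annotation is not given in the sources used here. Per gene, the deposited signal is the read count over a size factor of its library, and such values are called normalized counts in the text. Each library's values were whole multiples of its smallest value (100% within 0.01 read), which gave back reads. Of 35269 rows, 1 without a gene name (at most 6 reads per library) was left out.

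The comparison used limma 3.58.1 under R 4.3.3 (eBayes with trend, two-sided) on log2(value + 1) for genes with a mean of at least 10, with Benjamini-Hochberg adjustment over all of them. The labels do not say whether replicates came from separate cultures, so p-values measure the spread between these samples, which may be technical. Alternatives were a pseudocount of 10, no filter, a mean of at least 100, quantile or TMM scaling, moderation without trend, a replicate block, each library left out, edgeR 4.0.16 and DESeq2 1.42.0 on recovered reads, and removal of trends on GC content and length (98.4% of tested genes had both). Tested on simulated reads, limma recovered 173 of 199 genes changed by 1 on the log2 scale and 142 of 200 changed by 0.5, with 16 and 9 false calls. The simulation had no library that stood apart as DMSO replicate 1 did. Its changes were larger than those of PLK2, TP53INP1 and SESN2, so these shares need not hold for the calls here.

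The members, the lists and their roles were chosen with earlier results of these data known. Some genes of the lists are not reported here and are left out of their counts. Named genes were the members, MDM4 and CDKN1A, every gene of the lists with an adjusted p under 0.05 and the highest in mean of each role. PLK3, BAX, PIDD1, XPC, AK1, LIF, EP300, CHEK1, USP7 and the genes named with the markers were added after their values were seen. Positions are from GENCODE on hg38, and promoter sequences and starts from RefSeq on GRCh38.p14. TP53INP1 had no entry in that table. Protein sequences were not used here.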

Additional observations from a re-analysis of the deposited data

How the results depend on the processing

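The number of genes called over all genes was 475 (176 higher and 299 lower), 1596 with GC and length trends removed, 33 without the eBayes trend (30 higher and 3 lower), 277 with quantile normalization (132 higher and 145 lower), and 19 to 1827 with 1 library left out. Leaving out DMSO replicate 1 gave 1827 and DMSO replicate 3 gave 242, and leaving out drug-treated replicate 1, 2 or 3 gave 19, 25 and 46 (15, 16 and 28 higher, and 4, 9 and 18 lower). The number of members called was 2, fell to 0 without the eBayes trend (3 at an unadjusted p under 0.05), and ran from 0 to 3 with 1 library left out, reaching 3 without DMSO replicate 1. The number of p53 targets called was 6, rose to 13 with GC and length trends removed, and ran from 1 to 13 with 1 library left out. It was 0 without the eBayes trend, where 15 targets and 16.1% of all genes had an unadjusted p under 0.05. It was 13 without DMSO replicate 1 and 1, E2F7, without each of the drug-treated libraries. All 6 kept their direction in all 16 alternatives. In limma with a replicate block, 180 genes, 2 members and 5 p53 targets were called, and SESN2 (adjusted p = 0.0993), CHEK2 (0.0629), DDIT3 (0.0984) and PSAT1 (0.0599) passed the threshold only without the block. Same-numbered libraries had correlations of deviations from their group means of -0.10, -0.03 and -0.03, which gave no sign of pairing by replicate number. The labels do not state a pairing, and these values cannot exclude one.

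Values near 0 turned sign. MDM2 was 0.0031 with GC and length trends removed. ZMAT3 was 0.0022 in DESeq2, 0.0069 in edgeR, 0.0065 with quantile normalization and 0.061 with GC and length trends removed. With 1 library left out, ZMAT3 ran from -0.064 to 0.052, SESN1 from -0.11 to 0.11, AEN from -0.094 to 0.088 and MDM4 from -0.057 to 0.070 on the log2 scale. The cause was not tested. No adjusted p of these values was under the threshold. FAS, with at most 9 reads in a library, and 10 other p53 targets lay below the filter and were not tested. Genes with near-identical copies, antisense partners and single isoforms were not told apart here.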
